A study of Mus musculus with 6 samples.

Results

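The 9 genes described here encode components of the complement system: C1qa, C1qb and C1qc, C1ra and C1s1, C2, C3, C4b and Cfb. They were taken from the table of the whole series by gene symbol, and all 9 were among its 20533 genes and passed the filter on low values. The tissue was distal colon of male wild-type mice of strain C57BL/6, aged 7 weeks and sampled on day 7. The 3 groups were 2% DSS with montmorillonite powder, 2% DSS alone, and water, with 2 libraries each. DSS, dextran sulphate sodium, is a polymer that damages the lining of the colon and provokes colitis, and montmorillonite is a clay mineral used as an adsorbent in diarrhoea. All mice shared strain and sex, and none of the groups received montmorillonite without DSS. Nothing in the labels says that replicates are different animals, so p-values measure only the spread between these libraries, which may be technical. No montmorillonite dose is stated in the labels.

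Complement is a cascade of plasma and tissue proteins that tags surfaces for uptake and recruits leukocytes. In the classical pathway, C1q binds antibody or a surface and the proteases C1r and C1s then cleave C4 and C2, whose fragments form an enzyme that cleaves C3. In the alternative pathway, factor B replaces C2 in a second such enzyme and amplifies C3 cleavage. The liver supplies most plasma complement, whereas in tissues C1q comes largely from macrophages, and C1r, C1s, C3 and C4 are made by fibroblasts and other local cells. In mice, C4b encodes C4 itself.

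The deposited values were normalised read counts, in which the reads of a library are divided by 1 factor. The whole reads behind them summed to 6395768 and 4494666 in DSS plus montmorillonite, 21481594 and 15212981 in DSS, and 8936826 and 3741494 in water. The 9 genes together had a normalised count of 4687 and 17519 in DSS plus montmorillonite, 9392 and 16842 in DSS, and 4704 and 4610 in water. The epithelial and smooth muscle markers of colon were abundant in all 6 libraries. Libraries also stood apart by tissue markers. Summed stratified squamous markers (6 genes, led by the keratins Krt5 and Krt14) were 106 and 7070 in DSS plus montmorillonite, 158 and 39432 in DSS, and 20.2 and 439 in water. Summed skeletal muscle markers (5 genes, led by Acta1 and Ckm) were 3206 and 131 in DSS plus montmorillonite, 90.1 and 2638 in DSS, and 509 and 271 in water. In both treated groups, replicate 2 was the library rich in squamous transcripts, and it was also the library with the higher complement sum. The part of this tissue content in the results below was not tested, and for the 9 genes the values with 1 library left out are given as ranges or singly.

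The 3 C1q genes, which encode the chains of the recognition molecule, varied together. Their fold range over the 6 libraries was smaller than those of C1ra, C1s1, C3 and C4b and larger than those of C2 and Cfb. C1qa (ENSMUSG00000036887.5) had normalised counts of 715 and 1615 in DSS plus montmorillonite, 845 and 1220 in DSS, and 773 and 660 in water. C1qb had 709 and 1521 in DSS plus montmorillonite, 803 and 1000 in DSS, and 749 and 598 in water. For C1qc the counts were 581 and 1181 in DSS plus montmorillonite, 701 and 843 in DSS, and 615 and 646 in water. All 3 genes were highest in DSS plus montmorillonite replicate 2, while replicate 1 of that group lay near the water libraries. Both DSS libraries lay above both water libraries for each of the 3. The genes are neighbours on chromosome 4 of GRCm38, at 136895917 to 136898803 (C1qa), 136889804 to 136893065 (C1qc) and 136880129 to 136886187 (C1qb), all on the minus strand.

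**Figure D1:**
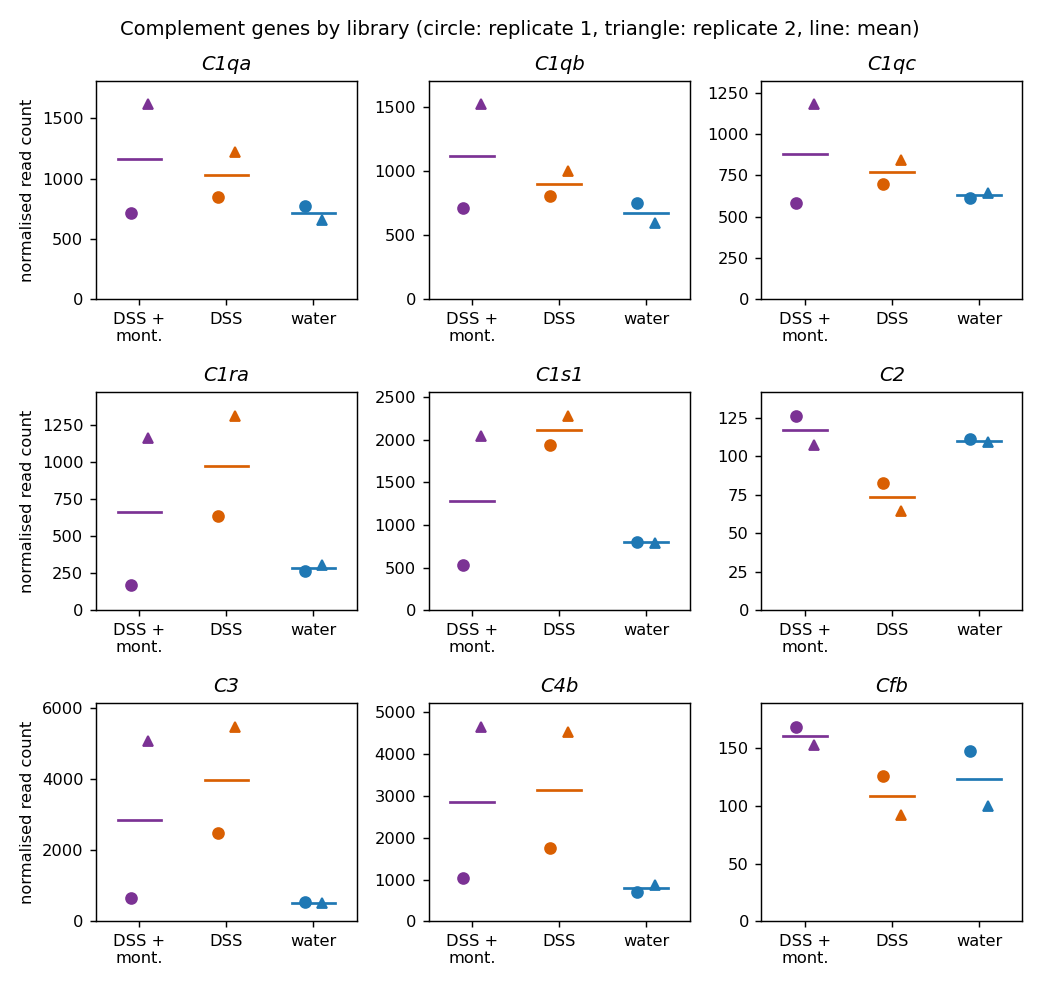
Normalised read count of each of the 9 complement genes in every library, with DSS plus montmorillonite, DSS and water from left to right; circles are replicate 1, triangles replicate 2 and lines the mean of the 2 libraries. C3 lies at 5075 and 5481 in replicate 2 of the treated groups, and C2 and Cfb lie on a much lower scale.

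The promoters of C1qb and C1qc are shown because the C1q genes varied together. Each is the 250 bases before the RefSeq transcription start (GRCm38.p6), and capitals mark matches to searched motifs. The RefSeq start of C1qc lies inside the gene as GENCODE annotates it, which begins at 136893065 on the minus strand. Part of the C1qc window is therefore within that gene.
C1qb (chr4:136886201-136886450, minus strand): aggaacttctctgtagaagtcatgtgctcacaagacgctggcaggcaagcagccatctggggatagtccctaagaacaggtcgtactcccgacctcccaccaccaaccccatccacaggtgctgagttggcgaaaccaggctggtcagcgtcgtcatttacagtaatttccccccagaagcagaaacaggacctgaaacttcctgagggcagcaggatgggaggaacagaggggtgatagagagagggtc
C1qc (chr4:136892915-136893164, minus strand): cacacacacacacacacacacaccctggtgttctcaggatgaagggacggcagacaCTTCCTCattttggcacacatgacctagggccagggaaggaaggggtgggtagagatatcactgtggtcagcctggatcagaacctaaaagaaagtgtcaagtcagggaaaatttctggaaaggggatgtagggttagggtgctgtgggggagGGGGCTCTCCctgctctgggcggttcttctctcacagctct
The letters of 6 motifs were searched on both strands in each window: the kappa B consensus, TTCNNNGAA (STAT), GAAA followed by any 2 bases and a further GAAA (interferon-stimulated response element), TTGCNNAA (C/EBP), TGCTGAC (part of the MAF recognition element) and GAGGAAG (PU.1). No 2 of the matches in the promoters shown overlapped. C1qc had a kappa B match that began 41 bases before the start and a PU.1 match on the opposite strand 194 bases before it. The kappa B match lay inside the gene as GENCODE annotates it, and the PU.1 match outside. Among 32851 promoter windows of the same length, 3.90% held a kappa B match, 7.02% STAT, 2.98% the interferon element, 9.56% C/EBP, 3.81% the MAF motif and 10.6% PU.1. C1qb had no match to any of the 6.

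The ratios between the chains ranged less than those to C3. C1qb was 0.992 and 0.942 of C1qa in DSS plus montmorillonite, 0.950 and 0.819 in DSS, and 0.969 and 0.907 in water, a range of 1.21-fold. C1qc divided by C1qa ranged 1.42-fold, from 0.690 to 0.979, and C3 divided by C1qa ranged 6.51-fold. Per kilobase of merged exons, the mean levels of C1qa were 1120 in DSS plus montmorillonite, 993 in DSS and 689 in water, the highest of the 9 genes in each group. C1qb followed in each group with 1025, 828 and 619 in the same order of groups. The likeness of 2 genes was measured as the root mean square difference of their mean-centred log2 values over the 6 libraries. It was 0.0897 for C1qa and C1qb, the smallest among the 9 genes, and 0.152 and 0.158 for the pairs with C1qc.

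In DSS against water the C1q genes did not pass the test. limma was run on log2(normalised count + 1) over 20307 genes, with only the 4 libraries compared and a threshold of 0.05 on the Benjamini-Hochberg adjusted p. The log2 difference was 0.51 ± 0.23 (SE) for C1qa (adjusted p = 0.188), 0.42 ± 0.20 for C1qb (adjusted p = 0.217) and 0.29 ± 0.18 for C1qc (adjusted p = 0.321). These are folds of 1.42, 1.34 and 1.22, and with 1 library left out the log2 differences were 0.24 to 0.77 for C1qa, 0.26 to 0.58 for C1qb and 0.15 to 0.42 for C1qc. In bulk tissue, a change in the number of cells of a type and a change in RNA per cell cannot be told apart. Summed resident macrophage markers (11 genes) were 1759 and 4806 in DSS plus montmorillonite, 2352 and 2915 in DSS, and 1755 and 1687 in water, the same order of libraries within each treated group as the C1q genes. In DSS against water 2 of these 11 markers were called higher and none lower. Csf1r, the receptor for macrophage colony-stimulating factor and the most abundant of them, had 342 and 1570 in DSS plus montmorillonite, 810 and 873 in DSS, and 409 and 478 in water (log2 difference of DSS and water 0.93, adjusted p = 0.0248). Mrc1, the mannose receptor, had 295 and 1121 in DSS plus montmorillonite, 433 and 611 in DSS, and 324 and 284 in water (0.76, adjusted p = 0.0814). Both DSS libraries lay above both water libraries for 6 of the 11 markers and below them for 3. Of all genes, 33.9% and 28.5% did so in the same directions. Mertk, 1 of the 3 that lay below, had 185 and 213 in DSS and 294 and 289 in water. The C1q sum divided by Csf1r was 5.86 and 2.75 in DSS plus montmorillonite, 2.90 and 3.51 in DSS, and 5.23 and 3.99 in water. Divided by Adgre1, which encodes the macrophage surface protein F4/80, it was 10.03 and 16.1 in DSS plus montmorillonite, 11.3 and 15.1 in DSS, and 11.2 and 15.2 in water. Relative to Csf1r both DSS libraries lay below both water libraries, and relative to Adgre1 the groups overlapped. The part of macrophage content in these values was not tested.

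The genes of the C1 proteases were higher in DSS. C1ra (ENSMUSG00000055172.10) had normalised counts of 168 and 1165 in DSS plus montmorillonite, 635 and 1317 in DSS, and 269 and 307 in water. C1s1 (ENSMUSG00000038521.17) had 531 and 2044 in DSS plus montmorillonite, 1936 and 2286 in DSS, and 804 and 794 in water. In both genes the DSS libraries lay above the water libraries, and DSS plus montmorillonite gave the lowest value of all 6 libraries in replicate 1 and a value within the DSS range in replicate 2. C1ra averaged 976 ± 482 in DSS and 288 ± 27.1 in water (SD, n = 2 each), a log2 difference of 1.67 ± 0.35 (fold 3.18, limma adjusted p = 0.0315). C1s1 averaged 2111 ± 247 in DSS and 799 ± 7.53 in water (SD, n = 2 each), a log2 difference of 1.40 ± 0.17 (fold 2.63, limma adjusted p = 0.00898). The genes lie close to each other on chromosome 6, C1ra at 124512405 to 124523443 on the plus strand and C1s1 at 124530345 to 124542359 on the minus strand. C1s1 divided by C1ra was 3.15 and 1.76 in DSS plus montmorillonite, 3.05 and 1.74 in DSS, and 2.99 and 2.59 in water.

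Their promoters are shown because both genes passed the test. The RefSeq start of C1ra lies inside the gene as GENCODE annotates it, which begins at 124512405. Most of the C1ra window is therefore within that gene.
C1ra (chr6:124512371-124512620, plus strand): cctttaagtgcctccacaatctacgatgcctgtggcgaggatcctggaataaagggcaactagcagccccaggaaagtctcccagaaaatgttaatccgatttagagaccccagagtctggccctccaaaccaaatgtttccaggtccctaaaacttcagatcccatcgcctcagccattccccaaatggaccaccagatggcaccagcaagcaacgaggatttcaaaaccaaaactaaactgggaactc
C1s1 (chr6:124542360-124542609, minus strand): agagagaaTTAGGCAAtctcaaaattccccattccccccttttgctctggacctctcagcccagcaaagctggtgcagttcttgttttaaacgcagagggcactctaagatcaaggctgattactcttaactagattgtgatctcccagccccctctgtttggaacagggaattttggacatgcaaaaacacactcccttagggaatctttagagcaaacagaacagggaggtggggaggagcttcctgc
C1s1 has 2 RefSeq starts close to each other, and the window of the upstream one is shown. It held a C/EBP match on the opposite strand, which began 242 bases before that start, and the window of the other start held no match to the 6 motifs. C1ra had no match to the 6 motifs.

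C2, whose protein supplies the protease of the classical C3 convertase, moved the other way. Its normalised counts were 127 and 107 in DSS plus montmorillonite, 82.4 and 64.2 in DSS, and 111 and 109 in water. Both DSS libraries lay below the other 4. The log2 difference of DSS and water was -0.59 ± 0.29 and did not pass (fold 0.663, limma adjusted p = 0.216), at -0.77 to -0.42 with 1 library left out. Summed epithelial markers (8 genes), which were likewise lower in DSS, were 163072 and 89482 in DSS plus montmorillonite, 64901 and 44602 in DSS, and 153642 and 160339 in water. All 8 fell in DSS against water, with a median log2 difference of -1.47, among them the keratins Krt8 (-1.81, adjusted p = 0.0166) and Krt19 (-1.47, adjusted p = 0.0148). The part of epithelial content in the C2 values was not tested.

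C3 and C4b, the central components of the cascade, had the largest differences from water among the 9 genes. C3 (ENSMUSG00000024164.15; chromosome 17, 57203970 to 57228136, minus strand), whose cleavage all pathways share, had 656 and 5075 in DSS plus montmorillonite, 2497 and 5481 in DSS, and 533 and 521 in water. C4b (ENSMUSG00000073418.4; chromosome 17, 34728380 to 34743882, minus strand) had 1033 and 4659 in DSS plus montmorillonite, 1767 and 4540 in DSS, and 704 and 876 in water. Every treated library lay above both water libraries for these genes, with DSS plus montmorillonite replicate 1 nearest to water. C3 averaged 3989 ± 2110 in DSS and 527 ± 8.43 in water (SD, n = 2 each), a log2 difference of 2.81 ± 0.36 (fold 7.01, limma adjusted p = 0.0105). C4b averaged 3153 ± 1960 in DSS and 790 ± 122 in water (SD, n = 2 each), a log2 difference of 1.85 ± 0.43 (fold 3.61, limma adjusted p = 0.0412). Per kilobase of merged exons, C3 had a mean level of 557 in DSS plus montmorillonite, 776 in DSS and 102 in water. In DSS the level of C3 per kilobase was thus above those of C1s1 (675), C4b (554) and C1ra (327), and in water it was below those of C1s1 (255) and C4b (139) and close to that of C1ra (96.6).

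The promoter of C3 is shown because C3 had the highest fold of the 9 genes in DSS against water.
C3 (chr17:57228137-57228386, minus strand): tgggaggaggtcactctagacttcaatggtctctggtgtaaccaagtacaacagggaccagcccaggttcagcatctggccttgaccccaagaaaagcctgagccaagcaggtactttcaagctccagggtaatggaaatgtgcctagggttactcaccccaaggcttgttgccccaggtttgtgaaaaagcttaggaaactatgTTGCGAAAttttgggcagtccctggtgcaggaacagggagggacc
Its C/EBP match, in capitals, began 45 bases before the start on the gene's own strand.

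Cfb, which encodes factor B, had 168 and 153 in DSS plus montmorillonite, 126 and 91.6 in DSS, and 147 and 100.1 in water. The DSS and water libraries overlapped, and both DSS plus montmorillonite libraries lay above the other 4. The log2 difference of DSS and water was -0.18 ± 0.32 (fold 0.886, limma adjusted p = 0.743). When the values were scaled by total reads in place of the deposited factors, it was 0.06, so that its direction was not settled. Cfb and C2 are adjacent on chromosome 17, at 34856374 to 34862518 and 34862604 to 34898265 on the minus strand, and their likeness (0.237) was the closest outside the C1q genes.

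Several of these genes share sequence with others, and the handling of reads that match 2 genes is not given in the sources used here. C3 and the 3 C1q genes had no 50-base stretch in common with another annotated gene. For C1ra, 48.0% of its 50-base stretches also occurred in C1rb, for C1s1 24.3% in C1s2, and for C4b 35.2% in C4a. The copies were far lower: C4a had 10.1 and 83.6 in DSS plus montmorillonite, 42.5 and 65.2 in DSS, and 10.6 and 18.2 in water, and C1rb and C1s2 had at most 20 reads in any library. C2 and Cfb shared 58.0% and 81.4% of their stretches with Gm20547, an annotated gene that spans both and had no entry among the genes of the series. Their levels are therefore uncertain, and so, to a lesser degree, are those of C4b, C1ra and C1s1. C2 also shares 161 exonic bases with Zbtb12 and C1s1 shares 576 with Gm16567, both on the opposite strand, and the use of strand in counting is likewise not stated.

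In DSS against water, 4 of the 9 genes were thus called higher (C1ra, C1s1, C3 and C4b), none lower, and 5 did not pass; 7.9% of all 20307 genes were called higher and 7.18% lower. The median log2 difference was 0.51 over the 9 genes and 0.10 over all genes. DSS and water did not overlap for 8 of the 9, with DSS higher for 7 and lower for C2, where 33.9% and 28.5% of all genes did so in the same directions. With 2 libraries a group, an exact permutation test of a single gene cannot give a p below 0.333, and the calls rest on limma's sharing of the spread across genes. Over all genes none was called without either DSS library, 240 were called higher and 48 lower without water replicate 1, and 253 and 64 without water replicate 2. None of the 4 calls held, and no gene of the table was called, in a fit of all 6 libraries or after thinning all libraries to the depth of the shallowest. Nor did any of the 4 hold when any 1 of the DSS or water libraries was left out, where the spread comes only from the group that keeps both libraries. The adjusted p was then 0.060 to 0.144 for C1ra, 0.056 to 0.087 for C1s1, 0.056 to 0.076 for C3 and 0.070 to 0.170 for C4b. The log2 differences kept their sign, at 1.14 to 2.19 for C1ra, 1.28 to 1.52 for C1s1, 2.24 to 3.38 for C3 and 1.17 to 2.53 for C4b. In each, the lowest was obtained without DSS replicate 2, the library rich in squamous transcripts.

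**Figure D2:**
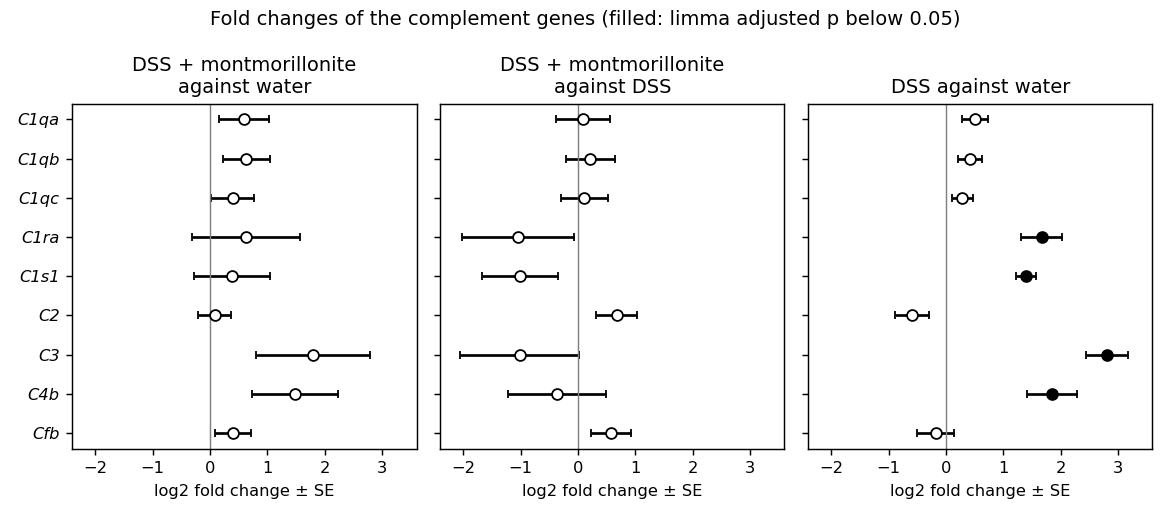
Log2 fold change of each gene (x axis, ± SE of the limma fit of the 4 libraries compared) for DSS plus montmorillonite against water, DSS plus montmorillonite against DSS, and DSS against water. Filled symbols mark an adjusted p below 0.05, which 4 genes reached in DSS against water and none in the other panels.

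Markers of stromal and vascular cells rose in the same comparison as these 4 genes. Summed fibroblast markers (8 genes) were 11459 and 35611 in DSS plus montmorillonite, 36337 and 59065 in DSS, and 10817 and 12920 in water, and 5 of the 8 rose in DSS against water. Among them were Dcn, which encodes the matrix proteoglycan decorin (log2 difference 2.99, adjusted p = 0.00325), and Col3a1, a fibrillar collagen gene (1.47, adjusted p = 0.0362). The median log2 difference over the 8 was 1.53, against 1.67 for C1ra, 1.40 for C1s1, 1.85 for C4b and 2.81 for C3. Relative to Pdgfra, a gene of that list that encodes a platelet-derived growth factor receptor, C1s1 was 1.07 and 0.841 in DSS plus montmorillonite, 1.03 and 1.003 in DSS, and 1.55 and 1.31 in water. C3 relative to Pdgfra was 1.33 and 2.09 in DSS plus montmorillonite, 1.33 and 2.40 in DSS, and 1.03 and 0.858 in water. The C1s1 ratio to Pdgfra was thus lower in every treated library than in water, and the C3 ratio to Pdgfra higher. Ratios to other markers of the list were not taken, and the log2 difference of Dcn (2.99) exceeded that of C3 (2.81). The Pdgfra ratios of C1ra and C4b overlapped between DSS and water. In both libraries of DSS plus montmorillonite, the C1ra ratio lay below both water libraries and the C4b ratio above them. C1ra relative to Pdgfra was 0.340 and 0.479 in DSS plus montmorillonite, 0.340 and 0.578 in DSS, and 0.518 and 0.506 in water, and C4b relative to Pdgfra was 2.09 and 1.92, 0.945 and 1.99, and 1.35 and 1.44 in the same groups. Summed endothelial markers (6 genes) were 738 and 2536 in DSS plus montmorillonite, 2639 and 3784 in DSS, and 640 and 764 in water. All 6 rose in DSS against water, with a median log2 difference of 2.13, led in level by Pecam1 (2.23, adjusted p = 0.00496) and Cdh5 (2.44, adjusted p = 0.0200). None of the 5 smooth muscle markers passed, with log2 differences of -0.24 for Acta2 and -1.001 for Myh11. Among liver markers Alb, which encodes albumin, lay between 0 and 4.55 in all 6 libraries. Ahsg, Fgb and Cyp2e1 had no entry under their symbols. Ttr was not scarce, with 112 and 36.3 in DSS plus montmorillonite, 30.5 and 16.3 in DSS, and 354 and 307 in water. It fell in DSS (log2 difference -3.83, limma adjusted p = 0.00655), and Apoa2 did not pass (-0.28, limma adjusted p = 0.821). Of the 6 adipose markers listed, Adipoq, Plin1 and Lep had no entry under their symbols. Fabp4 rose in DSS (1.75, limma adjusted p = 0.0150), and Cidec and Retn did not pass. Cidec had 24.5 and 107 in DSS plus montmorillonite, 24.5 and 21.6 in DSS, and 14.4 and 31.8 in water. None of the 5 skeletal muscle and none of the 6 squamous markers passed in DSS against water. The part of these tissue contents in the complement values was not tested.

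**Figure D3:**
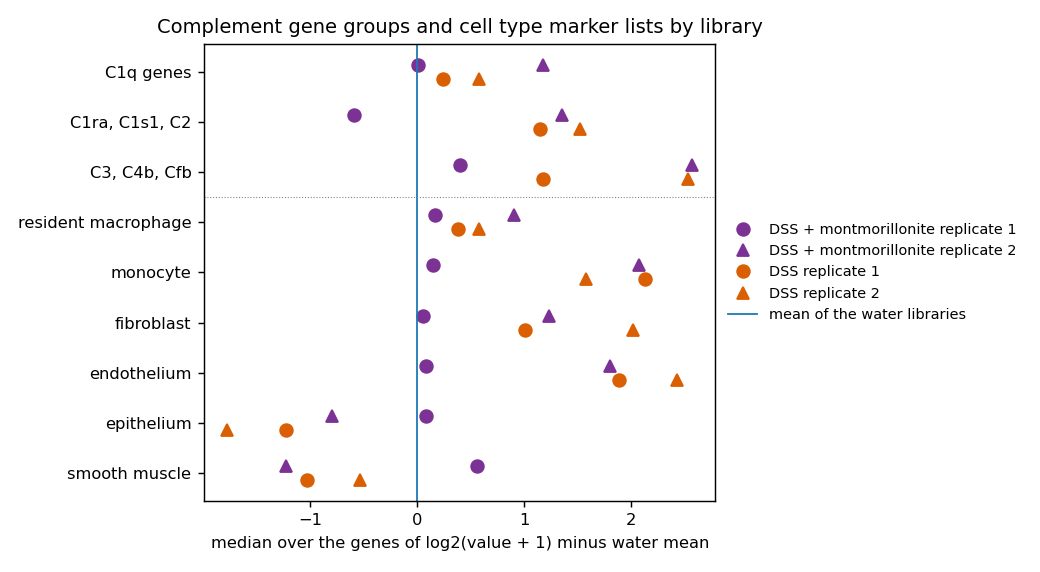
Median, over the genes of a group or marker list, of log2(normalised count + 1) minus its mean in water (x axis), for each treated library; the vertical line is the mean of the water libraries. In replicate 1 of DSS plus montmorillonite the C1q, fibroblast, endothelial and epithelial medians lie at 0.002, 0.054, 0.081 and 0.083. In the same library the group of C1ra, C1s1 and C2 lies at -0.59 and smooth muscle at 0.56. The group of C3, C4b and Cfb lies at 0.40 in replicate 1 and at 2.57 in replicate 2.

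Whether complement expression under DSS differs when montmorillonite is given was addressed by the other comparisons, and both were dominated by the spread between the 2 montmorillonite libraries. The higher of the 2 was 7.74 times the lower for C3, 6.92 times for C1ra, 4.51 times for C4b, 3.85 times for C1s1, and 2.03 to 2.26 times for the C1q genes. It was 1.18 times for C2 and 1.10 times for Cfb. In DSS the same ratio was at most 2.57 and in water at most 1.47 for the 9 genes. Replicate 1 was nearer to the water mean than to the DSS mean for 9 of the 9 genes on the log2 scale. Replicate 2 was nearer to DSS for 7 of the 9, with C2 and Cfb nearer to water. Over all genes, 35.4% in replicate 1 and 66.7% in replicate 2 were nearer to DSS. As a fold of the water mean, C3 was 1.25 in replicate 1 and 9.63 in replicate 2, beside 4.74 and 10.4 in DSS. C1ra was 0.585 in replicate 1 and 4.05 in replicate 2, beside 2.21 and 4.57 in DSS.

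**Figure D4:**
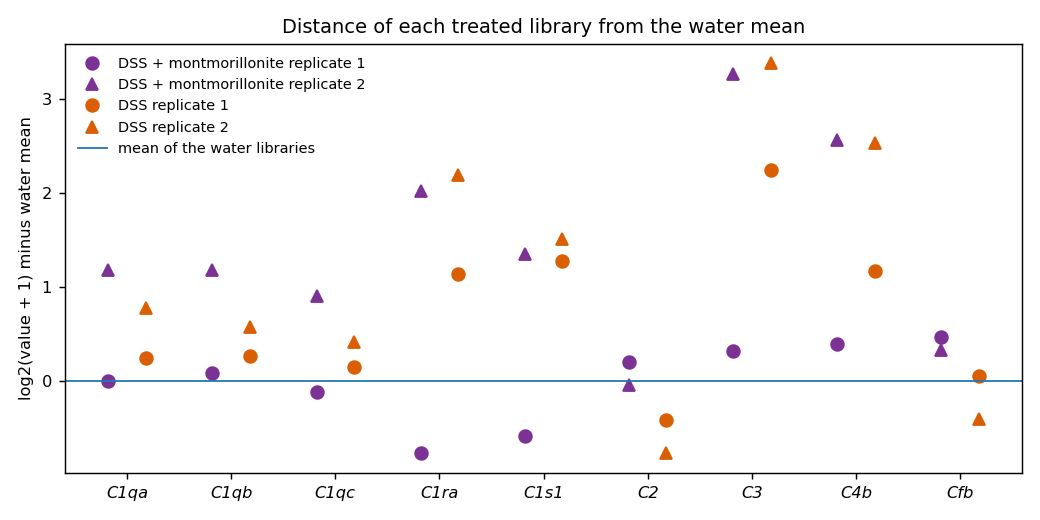
Log2(normalised count + 1) of each gene in each treated library minus its mean in water (y axis; the line at 0 is water). DSS plus montmorillonite replicate 1 runs from -0.77 for C1ra to 0.47 for Cfb, and replicate 2 lies among or above the DSS libraries for all 9 genes.

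In DSS plus montmorillonite against water, none of the 9 genes was called in either direction, as for all 20307 genes (0% called higher and 0% lower by limma). At an unadjusted p below 0.05, limma had 0 of the 9 and 1576 of all genes; edgeR called 0 of all genes and DESeq2 87 higher and 113 lower, none of them among the 9. The log2 differences were 1.79 ± 0.99 for C3, 1.48 ± 0.75 for C4b, 0.62 ± 0.94 for C1ra, 0.38 ± 0.66 for C1s1, 0.40 ± 0.31 for Cfb and 0.08 ± 0.28 for C2. For the C1q genes they were 0.59 ± 0.43 (C1qa), 0.63 ± 0.41 (C1qb) and 0.39 ± 0.38 (C1qc). Adjusted p lay between 0.651 and 0.939. The groups did not overlap for C3, C4b and Cfb, which were higher in both montmorillonite libraries; 21.5% of all genes did so in that direction, and 19.2% in the other, in which none of the 9 did. Without replicate 2 of DSS plus montmorillonite the differences were 0.32 for C3, 0.40 for C4b, -0.77 for C1ra and -0.59 for C1s1, and without replicate 1 they were 3.27 for C3, 2.57 for C4b, 2.02 for C1ra and 1.35 for C1s1. With any 1 library left out, C1qa ranged from 0.0020 to 1.18, C1qb from 0.083 to 1.18 and Cfb from 0.13 to 0.67.

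In DSS plus montmorillonite against DSS, limma called none of the 9 genes and none of all genes (0% in each direction). At an unadjusted p below 0.05 it had 0 of the 9 and 1444 of all genes; edgeR called 0 of all genes and DESeq2 54 higher and 22 lower, none of them among the 9. The log2 differences were -1.04 ± 0.98 for C1ra, -1.01 ± 0.67 for C1s1, -1.02 ± 1.03 for C3 and -0.37 ± 0.85 for C4b. They were 0.67 ± 0.36 for C2, 0.58 ± 0.34 for Cfb, and 0.08 ± 0.47, 0.21 ± 0.43 and 0.11 ± 0.41 for C1qa, C1qb and C1qc. Adjusted p lay between 0.710 and 0.967. Both montmorillonite libraries lay above both DSS libraries for C2 and Cfb, as did 19.4% of all genes; no gene of the 9 lay below in both, against 20.6% of all genes. Without replicate 2 of DSS plus montmorillonite the differences were -2.44 for C1ra, -1.98 for C1s1 and -2.49 for C3. Without replicate 1 they were 0.35 for C1ra, -0.04 for C1s1 and 0.46 for C3. With any 1 library left out, C2 ranged from 0.49 to 0.85 and Cfb from 0.35 to 0.80. The 3 comparisons share libraries pairwise and are not independent of each other.

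Outside the 9, 48 further complement genes were listed by role, of which 41 were in the table and 40 passed the filter. Cfi was the one below it, and Mbl1, Mbl2, Fcnb, Masp2, C8a, C8b and C9 had no entry under their symbols. In DSS against water 12 of the 40 rose, none fell and 28 did not pass. Over all genes 7.9% were called higher and 7.18% lower. The median log2 difference was 1.05 for the 40 and 0.10 over all genes. DSS and water did not overlap for 26 of the 40, with 22 higher and 4 lower in DSS. Of all genes 33.9% and 28.5% did so in the same directions. Of the 7 soluble regulators 3 rose. Clu, which encodes clusterin, an inhibitor of the terminal complex, had 234 and 2591 in DSS plus montmorillonite, 2780 and 2772 in DSS, and 239 and 368 in water (log2 difference of DSS and water 3.22 ± 0.24, adjusted p = 0.00362). As in C1s1, replicate 1 of DSS plus montmorillonite was far below the other treated libraries. Serping1, which encodes the inhibitor of C1r and C1s, was chosen after its values were seen and had 1125 and 4424 in DSS plus montmorillonite, 3310 and 4477 in DSS, and 870 and 1171 in water (1.93 ± 0.23, adjusted p = 0.00899). Relative to C1s1, its target, Serping1 was 2.12 and 2.16 in DSS plus montmorillonite, 1.71 and 1.96 in DSS, and 1.08 and 1.48 in water. The other 4 of the 7 soluble regulators did not pass. Among them C4bp, which encodes a cofactor in the inactivation of the C4b fragment of the C4 protein, had 243 and 54.5 in DSS plus montmorillonite, 149 and 14.9 in DSS, and 232 and 164 in water (-2.00 ± 0.99, limma adjusted p = 0.223).

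Of the 9 complement receptor genes, 6 rose in DSS, where 7.9% of all genes were called higher. Itgam, the alpha chain of complement receptor 3, had 50.3 and 481 in DSS plus montmorillonite, 213 and 328 in DSS, and 53.8 and 36.4 in water (log2 difference of DSS and water 2.55 ± 0.35, adjusted p = 0.0116). C5ar1, the main receptor for the C5a fragment, had 31.6 and 289 in DSS plus montmorillonite, 179 and 293 in DSS, and 33.6 and 63.7 in water (2.28 ± 0.42, adjusted p = 0.0229). C5ar2, the second C5a receptor, rose by a log2 difference of 2.32 (adjusted p = 0.0343), and, chosen after their values were seen, Itgb2 (1.90, adjusted p = 0.00677) and Cd93 (1.83, adjusted p = 0.0243) rose as well. Cr2, a receptor for C3 fragments found on B cells and follicular dendritic cells, had 11.5 and 104 in DSS plus montmorillonite, 719 and 135 in DSS, and 20.2 and 36.4 in water (3.47 ± 0.79, adjusted p = 0.0376). A single DSS library, replicate 1, thus held most of the Cr2 signal, the reverse of the order seen for C3. C3ar1, the C3a receptor and the most abundant receptor gene that did not pass, had 158 and 267 in DSS plus montmorillonite, 188 and 140 in DSS, and 129 and 141 in water.

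Leukocyte markers moved with the receptor genes. Summed neutrophil markers (8 genes) were 127 and 7580 in DSS plus montmorillonite, 3178 and 7707 in DSS, and 23.0 and 38.7 in water, and 6 of the 8 rose in DSS, including S100a9 (log2 difference 9.64, adjusted p = 0.00541) and S100a8 (9.04, adjusted p = 0.00612). Of 8 monocyte markers 7 rose, among them Vcan (2.54, adjusted p = 0.00281), and Plac8, which colonic epithelium also expresses, fell (-1.35, adjusted p = 0.0140). Because of Plac8, the summed monocyte markers ran the other way, at 16110 and 14824 in DSS plus montmorillonite, 10503 and 8315 in DSS, and 13538 and 15010 in water. The part of leukocyte content in the receptor values was not tested.

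The remaining roles held 3 genes that rose. In the alternative pathway Cfp, which encodes the convertase stabiliser properdin, rose (log2 difference 2.07 ± 0.28, adjusted p = 0.0116; 114 and 374 in DSS plus montmorillonite, 366 and 407 in DSS, 73.0 and 114 in water). Cfd, which encodes factor D, had 12.9 and 5.45 in DSS plus montmorillonite, 15.7 and 2.40 in DSS, and 5.76 and 11.4 in water, and did not pass. In the lectin pathway 1 of 5 rose: Colec12, a membrane collectin, had 186 and 409 in DSS plus montmorillonite, 498 and 522 in DSS, and 120 and 132 in water (2.01 ± 0.20, adjusted p = 0.00655). Fcna, which encodes ficolin A, did not pass (0.43, adjusted p = 0.559). None of the 4 terminal pathway genes passed; C8g, which had the highest counts of them, had a mean of 20.3 in DSS and 29.1 in water. Of 9 membrane regulators, Thbd, which encodes thrombomodulin and was chosen after its values were seen, rose (2.00, adjusted p = 0.0306). Cd55, which encodes decay-accelerating factor, had 1447 and 1777 in DSS plus montmorillonite, 1420 and 1070 in DSS, and 959 and 905 in water (0.40 ± 0.19, adjusted p = 0.213). The 4 near copies of C1r, C1s and C4 did not pass. C4a (1.85 ± 0.49, adjusted p = 0.0588) was called higher by edgeR (adjusted p = 0.0455) and DESeq2 (adjusted p = 0.0179), when the filter was a mean of at least 10, under scaling by total reads and with the replicate number as a block, and was named after its values were seen. The most abundant near copy, C1rl, had 44.6 and 41.8 in DSS plus montmorillonite, 47.6 and 56.1 in DSS, and 58.5 and 31.8 in water. When 1 library of DSS or water was left out, the number of the 40 genes called higher was 0 to 3. None of the 40 was called in either comparison with DSS plus montmorillonite; at an unadjusted p below 0.05 limma had 5 of them against water and 2 against DSS, edgeR called 0 in both, and DESeq2 called 1 against water and 0 against DSS.

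**Figure D5:**
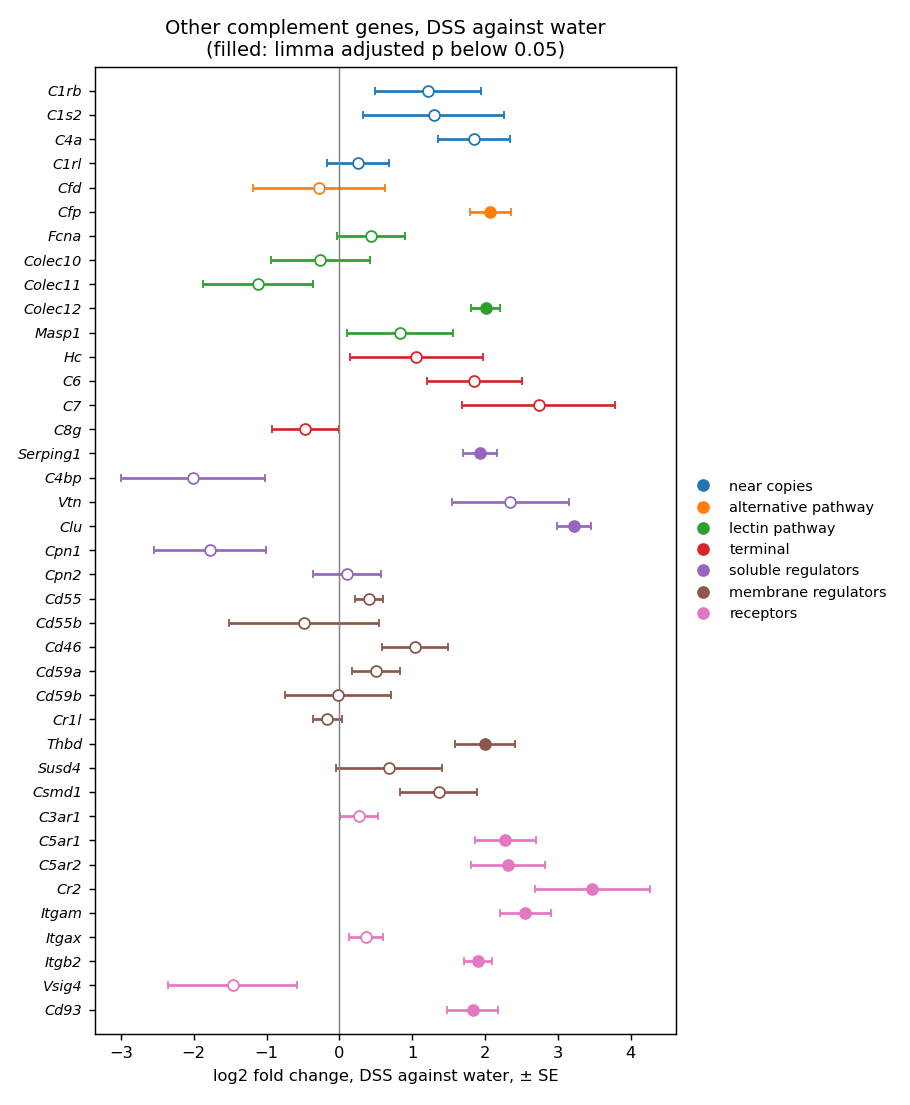
Log2 fold change (x axis, ± SE of the limma fit of 4 libraries) in DSS against water of 39 of the 40 further complement genes that passed the filter, coloured by role. Filled symbols mark the 11 of these with an adjusted p below 0.05, all of them higher in DSS and 6 of them receptors; Cr2 at 3.47 and Clu at 3.22 have the highest values drawn.

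Genes for signals and transcription factors known to induce complement genes were examined as a list of 20. In DSS against water 9 rose, 1 fell and 10 did not pass, where 7.9% of all genes were called higher and 7.18% lower. The cytokine genes Il1b (91 and 901 in DSS plus montmorillonite, 1165 and 1165 in DSS, 30.7 and 40.9 in water), Il6 and Osm rose, as did the receptor genes Il1r1, Osmr and Il6st. Among transcription factors Cebpb, a C/EBP family member, rose with a log2 difference of 2.89 (adjusted p = 0.00939), and Spi1, which encodes PU.1, with 1.57 (adjusted p = 0.0194). On the interferon side Irf1 fell (-1.46, adjusted p = 0.0108; 2730 and 1555 in DSS plus montmorillonite, 1341 and 1107 in DSS, 3023 and 3718 in water). Ifng had at most 11 reads in any library. Among the complement genes, C1ra, C1s1, C3 and C4b were called higher in DSS. C2 was lower without passing, and the direction of Cfb was not settled. None of the 20 was called in the comparisons with DSS plus montmorillonite. Values led the choice of the genes named from this list, and their part in the complement values was not tested.

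The genes most like each complement gene over the 6 libraries were sought among 11933 genes with a mean of at least 50, by the same root mean square difference of mean-centred log2 values. For C3 they were Lox, a collagen cross-linking oxidase gene, at 0.0634, Spns2 at 0.132 and Dnm3os at 0.172, where the median over all genes compared was 1.53. For C1s1 they were Slc16a6 (0.113), Igf1 (0.115) and Snx18 (0.118), against a median of 0.894. Apobr (0.151), Sema4c (0.155) and B4galnt1 (0.181) were nearest to C1ra, and Matn2 (0.134), Slc39a14 (0.147) and Fmnl2 (0.163) to C4b, both against a median of 1.16. C1qa had Fgfr4 (0.0756), Slco2b1 (0.0922) and Iscu (0.104), C1qb had Thop1 (0.0759), Hfe (0.0799) and Fgfr4 (0.0949), and C1qc had Wwox (0.0828), Galns (0.0837) and Gas7 (0.0906). Acbd3 (0.0438), Lrba (0.0528) and Dock5 (0.0543) were nearest to C2, and Rasa2 (0.0837), Zfp292 (0.0923) and Robo2 (0.0938) to Cfb. With 6 libraries these are descriptions, and genes of small range find near matches more easily than C3. Among the 9 themselves, C1ra and C1s1 differed by 0.364 and C3 and C4b by 0.474, while C2 and C3 were the least alike at 1.72.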

How the data were processed

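RNA-seq libraries of mouse distal colon, 6 in all, were used. Groups and replicate numbers came from the sample titles. The deposited signal was 1 normalised read count per gene and library. Per the submitters' processing notes, the genome build was mm10 (GRCm38); aligner, counter and normalisation tool are not given in the sources used here. Of the values of each library 100% were whole multiples of the smallest, to within 0.01 read, and the factors equalled DESeq2's size factors, so whole reads were recovered. The lowest sum of reads of a gene was 10. Symbols and positions came from GENCODE M21 (20500 of 20533 identifiers matched without version, 33 not at all), promoters from a table of RefSeq sequences (GRCm38.p6), in which 5 of the 9 genes were matched.

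Tests used limma (version 3.58.1 in R 4.3.3, trend by intensity) on values log2-transformed after adding 1. Genes whose mean value was below 1 were dropped (226, leaving 20307). Tests were two-sided, with Benjamini-Hochberg adjustment over all genes and a threshold of 0.05. Each fit held only the 4 libraries of its groups (residual degrees of freedom, 2). That choice, the 9 genes and all lists were made with earlier results of these data known, among them the larger spread within DSS plus montmorillonite. Fold changes on this scale understate those of low genes. edgeR 4.0.16 and DESeq2 1.42.0 on the recovered reads, other scalings, filters and pseudocounts, thinning, a replicate block and leaving out each library were alternatives. A single read was worth 1.44 and 1.82 in DSS plus montmorillonite, 0.335 and 0.479 in DSS, and 0.960 and 2.27 in water, so low values were coarsest in water replicate 2. The procedure was tested on simulated data.

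The genes named by rule were the 9 genes, of the other complement genes up to 8 in each direction with the largest log2 difference among those that passed, the most abundant member of each role that did not pass, the 3 genes most like each of the 9, and the 2 most abundant of each marker list. A few genes of these lists are counted but not reported by name here.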

Additional observations from a re-analysis of the deposited data

How the results depend on the processing

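In DSS against water the number of the 9 genes called higher was 4 under the main settings and 0 in a fit of all 6 libraries, 0 after thinning all libraries to the shallowest, and 0 to 0 when 1 library was left out. Every fit with 1 library left out has 1 group of a single library, assumed to vary like the other group, so its calls are weak evidence. The number was 4 under every other alternative run. In the fit of all 6, adjusted p was 0.158 for C3, 0.212 for C1s1, 0.204 for C4b and 0.287 for C1ra, and after thinning 0.065, 0.054, 0.127 and 0.100 for the same genes. The further complement genes called higher were 12, 0 in the fit of 6, 0 after thinning, and 0 to 3 with 1 library left out. All genes called numbered 1605 higher and 1459 lower, 0 and 0 in the fit of 6 and after thinning, and 0 to 253 higher and 0 to 64 lower with 1 library left out (0 without either DSS library). On the recovered reads edgeR called 1666 higher and 1327 lower and DESeq2 2148 higher and 1897 lower. Scaling by total reads gave 2200 higher and 893 lower and moved the median of all genes to a log2 difference of 0.33. Cfb was 0.061 under that scaling, and -0.45 to 0.10 with 1 library left out (0.05 without DSS replicate 2, 0.10 without water replicate 1).

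Samples share replicate numbers across groups, and the labels give these no meaning. The deviations of same-numbered libraries from their group means correlated with r = 0.196 in DSS against water, 0.160 in DSS plus montmorillonite against water and 0.409 in DSS plus montmorillonite against DSS (13914 genes). With the replicate number as a block, DSS against water had 2724 genes higher and 2360 lower, with 4 of the 9 genes and, of the further complement genes, 14 higher and 1 lower (C4bp); the other comparisons had 0.

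In DSS plus montmorillonite against water DESeq2 called 87 genes higher and 113 lower, 1 of them a complement gene. With 1 library left out, the differences ranged from -0.12 to 0.905 for C1qc, -0.77 to 2.02 for C1ra, -0.59 to 1.35 for C1s1 and -0.040 to 0.20 for C2. In DSS plus montmorillonite against DSS, DESeq2 called 54 higher and 22 lower. Without replicate 2 of DSS plus montmorillonite, limma called 59 higher and 226 lower there with the spread of the 2 DSS libraries alone, 1 of them a complement gene (Clu, log2 difference -3.56). Scaling by total reads moved the median of all genes from -0.07 to -0.31, and gave -0.18 for C1qa, -0.046 for C1qb and -0.15 for C1qc. With 1 library left out the range was -0.51 to 0.67 for C1qa, -0.34 to 0.76 for C1qb, -0.40 to 0.62 for C1qc, -2.44 to 0.35 for C1ra, -2.49 to 0.46 for C3 and -1.45 to 0.72 for C4b; the reversals came without replicate 2 of DSS plus montmorillonite or without DSS replicate 1 for the C1q genes (-0.18 for C1qa and -0.02 for C1qc in that case), and without replicate 1 of DSS plus montmorillonite or, for C4b (0.31), without DSS replicate 2. The cause of these changes was not tested.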
